A study of Schmidtea mediterranea with 6 samples.

Results

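Planarians are covered by a simple ciliated epidermis, whose cells are replaced throughout life by progenitors that leave the stem cell compartment and migrate outward. Their excretory system, the protonephridia, is a set of branched epithelial tubules capped by flame cells, whose beating cilia drive filtration, and the tubules take up filtered molecules much as a kidney tubule does. Both are epithelia that rest on or run through extracellular matrix (ECM), and both express secreted or membrane proteins that carry the domains typical of the ECM proteins of an animal, its matrisome. The values below are for the 24 contigs (assembled transcripts) that the study's matrisome tables assign to epidermis and the 24 assigned to protonephridia, 48 of the 28742 contigs in the count table. The assignment came from a published single-cell atlas and did not use the libraries analysed here. It names the cell type in which a contig was most enriched, so a contig may also be expressed in other cells. Collagens were left out of the lists, and leaving out lysyl oxidases, the gene sets that the study lists separately and some single contigs removed no further contig of either cell type.

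Of the 24 epidermal contigs, 7 were kept in the study's matrisome and 17 were excluded from it, 10 because the predicted protein has a transmembrane segment, 6 for want of a signal peptide and 1 for an unclear transcript. Of the 24 protonephridial contigs, 6 were kept and 18 excluded, 14 for a transmembrane segment and 4 for want of a signal peptide. The excluded contigs include receptors, adhesion proteins and membrane proteases, and they are described beside the kept ones. Of the kept contigs, the study rated dd_1363, dd_6028 and *cubilin* low in confidence of ECM localization. Human gene names in parentheses are best matches by sequence similarity and do not establish orthology, and the roles given for them are those of the human proteins.

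The libraries were made from poly(A) RNA of tails of asexual *Schmidtea mediterranea* (strain CIW4). Animals of the *hmcn-1(RNAi)* condition were fed liver with double-stranded RNA against *hmcn-1*, which encodes hemicentin-1, a large ECM glycoprotein that planarian muscle expresses. Control animals were fed double-stranded RNA of *unc-22*, a *Caenorhabditis elegans* sequence that the planarian genome lacks. Both conditions had 4 feedings over 13 days, each library held 5 pooled tails, and there were 3 libraries per condition. RNAi acts in every cell that takes it up, so the condition is not limited to a cell type, and a library is an average over all the tissues of the tail.

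Library totals ran from 6374450 to 11887127 reads. The level of *hmcn-1* was 18.5, 18.5 and 16.7 CPM (reads scaled to the size of the library, with TMM factors) in *hmcn-1(RNAi)* libraries, against 205, 206 and 204 CPM in control libraries. This was a log2 fold change of −3.53 (SE 0.0609, adjusted p = 7.39e-31, edgeR quasi-likelihood test with Benjamini-Hochberg adjustment, as for every adjusted p below). Control replicate 1 stood apart from the other controls: the chi-square per degree of freedom of its counts was 9.63 and 7.77 against them, and they differed from each other by 2.77. Against the *hmcn-1(RNAi)* libraries it had 6.66 to 6.98, where control replicate 2 had 5.29 to 7.39 and control replicate 3 had 4.86 to 6.62. The labels name no batch. Calls, medians and non-overlap counts of both whole lists are given both ways where they change without control replicate 1. The same holds for fold changes of named members and epidermal lineage markers that any single library moved by over 1.5 times. Other counts and medians of members are given with all libraries only.

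No epidermal or protonephridial contig passed the test after *hmcn-1* inhibition. Of each list, 23 contigs had enough reads to be tested, and edgeR called 0 of 23 epidermal and 0 of 23 protonephridial contigs at an adjusted p under 0.05, where it called 173 of all 15333 tested contigs (1.13%), 79 higher (0.515%) and 94 lower (0.613%). Unadjusted p values were under 0.05 for 5 epidermal and 5 protonephridial contigs, and 1690 of all tested contigs (11.0%) had such a value. DESeq2, with or without independent filtering, and limma-voom also called 0 contigs of either list. DESeq2 with independent filtering gave an adjusted p for only 7 epidermal and 9 protonephridial contigs.

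The differences were small in size. All 23 tested epidermal contigs and 22 of 23 protonephridial contigs had a fitted fold change within 1.2-fold of control, as did 85.4% of all tested contigs. The median size of the log2 fold change, sign left out, was 0.0998 for epidermal, 0.0909 for protonephridial and 0.0942 for all tested contigs. The median SE was 0.086, 0.084 and 0.113 in that order, so the members were measured more precisely than most contigs. The 95% interval of the fold change stayed within 1.5-fold for 22 of 23 contigs of each list, and within 1.2-fold for 12 epidermal and 11 protonephridial contigs. Of all 15333 tested contigs, 11478 stayed within 1.5-fold and 5484 within 1.2-fold in this way. The exceptions to the wider limit were dd_1268 in the epidermal list and dd_15985 in the protonephridial list, with 342 and 322 reads in all. Contigs dd_20228 (epidermal, 194 reads) and dd_17898 (protonephridial, 177 reads) had fewer and stayed within that limit. In bulk tails, fewer cells of a type and less RNA per cell cannot be told apart, and a fold change here could be either.

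Of 23 tested epidermal contigs, 16 had a lower and 7 a higher fitted level in *hmcn-1(RNAi)* libraries, with a median log2 fold change of −0.065 and a range of −0.23 to 0.10. Of 23 protonephridial contigs, 14 were lower and 9 higher, with a median of −0.039 and a range of −0.19 to 0.43. Over all tested contigs 50.0% were lower, and the median was 8.9e-05. In the epidermal list, 7 contigs (30.4%) had all 3 *hmcn-1(RNAi)* libraries below all 3 control libraries and 0 had them above, where 7.78% of all tested contigs were below and 7.81% above. In the protonephridial list 3 contigs (13.0%) were below and 1 (4.35%) above. Without control replicate 1, 10 epidermal and 6 protonephridial contigs lay below, where 13.7% of all tested contigs did. The members of a list share a cell type assignment and the same libraries, so these counts are descriptions and carry no test.

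The summed level of the 24 epidermal contigs was 2897, 2916 and 2869 CPM in *hmcn-1(RNAi)* libraries, against 2988, 3090 and 3113 CPM in control libraries. These did not overlap, but 74.6% of the sum came from dd_351 (41.1%), dd_357 (25.9%) and *adamtsl1* (7.58%). A median that weights each contig alike did overlap: the median log2 ratio to the control mean was −0.043, −0.050 and −0.049 in *hmcn-1(RNAi)* libraries, against −0.052, 0.037 and 0.011 in control libraries, where control replicate 1 was the lowest of the 6. Without that control library the median log2 fold change of the epidermal list was −0.11. The summed level of the protonephridial contigs overlapped, at 2004, 2032 and 2012 CPM in *hmcn-1(RNAi)* libraries, against 1972, 2055 and 2091 CPM in control libraries.

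**Figure D1:**
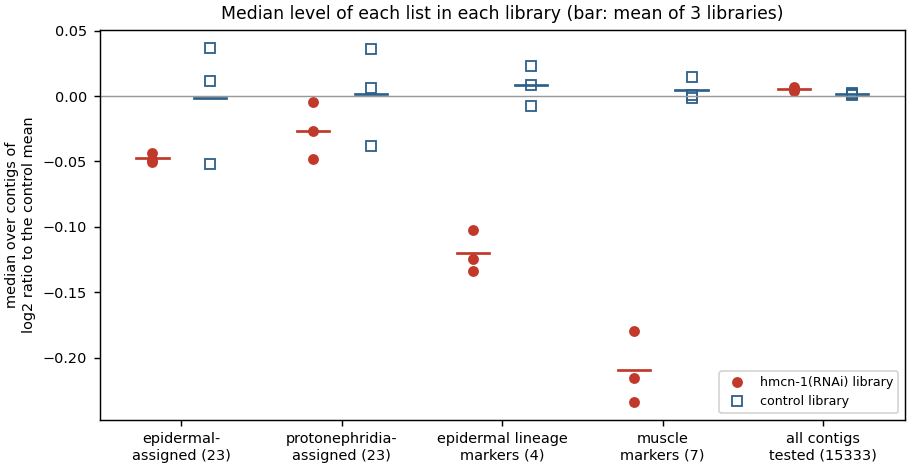
Median over the contigs of each list of the log2 ratio to the control mean, for each library. Filled circles are the 3 *hmcn-1(RNAi)* libraries and open squares the 3 control libraries, bars are their means, and the number of contigs is in parentheses. The epidermal and protonephridial medians of the conditions overlap. Those of the 4 epidermal lineage and 7 muscle markers do not, nor do those of the marker sets that are not plotted or of all tested contigs.

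Markers of the epidermal lineage that are in neither list were examined beside these values. The 4 markers were *soxP-3* and *zfp1*, expressed in epidermis-committed neoblasts, *prog-2* of early progenitors and *agat-3* of later progenitors. *prog-2* was at 1406, 1437 and 1393 CPM in *hmcn-1(RNAi)* libraries, against 1595, 1553 and 1513 CPM in control libraries. It was the only marker of the 4 to pass, and fell by 0.14 on the log2 scale (SE 0.0358, adjusted p = 0.0470). The call did not survive the removal of any one library (adjusted p 0.0794 to 0.244), the stricter count filter (0.0599), limma-voom (0.0588) or DESeq2 without independent filtering (0.142).

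The other 3 epidermal lineage markers had log2 fold changes of −0.12 for *soxP-3* (adjusted p = 0.578), −0.053 for *agat-3* (0.766) and −0.039 for *zfp1* (0.979), the last with a sign that turned when any one of 4 libraries was left out. Without *hmcn-1(RNAi)* replicate 3 the log2 fold change of *agat-3* was −0.019. *soxP-3* was at 42.7, 41.2 and 43.2 CPM in *hmcn-1(RNAi)* libraries, against 46.2, 47.4 and 44.3 CPM in control libraries, with no overlap. The summed level of the 4 markers, most of it *prog-2*, was 1551 to 1600 CPM in *hmcn-1(RNAi)* libraries, against 1683 to 1761 CPM in control libraries, and none was at 0 in any library. No protonephridial marker outside the list was named in the sources used here, so that list has no such check.

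Some markers of other tissues differed between the conditions as well. All 7 muscle markers had lower fitted levels and 4 passed the test (*mhc2*, calponin, troponin and tropomyosin), with sums of 7965 to 8213 CPM in *hmcn-1(RNAi)* libraries, against 8995 to 9550 CPM in control libraries. Both cathepsin+ cell markers were higher with neither called, with sums of 74.2 to 81.5 CPM in *hmcn-1(RNAi)* libraries, against 60.3 to 71.5 CPM in control libraries. Of 4 neural markers 1 was called, *ChAT*, and it was lower, and the neural sums were 202 to 206 CPM in *hmcn-1(RNAi)* libraries, against 216 to 228 CPM in control libraries. The 3 gamma neoblast markers all had lower fitted levels with none called, with sums of 426 to 439 CPM in *hmcn-1(RNAi)* libraries, against 445 to 491 CPM in control libraries. None of the 5 parenchymal markers was called, and their sums overlapped. No marker of these lists was at 0 in any library. The part of these differences in the values of the members was not tested.

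**Figure D2:**
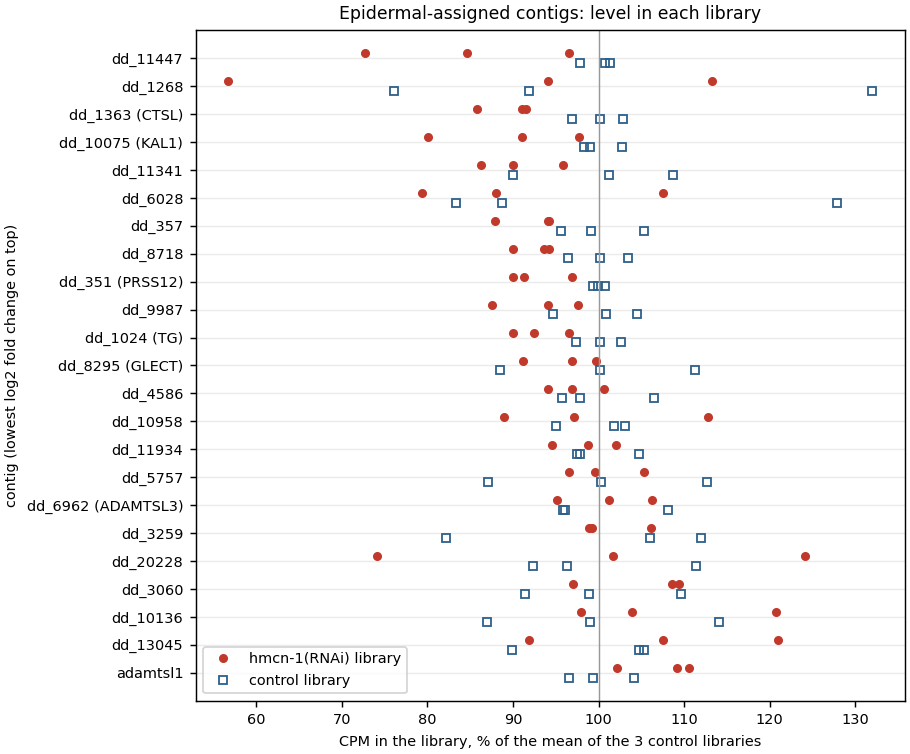
Level of the 23 tested epidermal contigs in each library, as a percent of the mean of the 3 control libraries. Filled circles are *hmcn-1(RNAi)* libraries, open squares control libraries, and contigs run from the lowest log2 fold change (−0.23, dd_11447) at the top to the highest (0.10, *adamtsl1*). In 7 rows all circles lie left of all squares, and in none do they lie to the right.

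Proteases and proteins related to them made up the largest named group of epidermal contigs. Matrix-degrading proteases and their inhibitors help set how fast ECM is turned over. The group here is wider, and whether its members act on ECM was not tested. Its 5 epidermal contigs all had lower fitted levels, from −0.19 to −0.019 on the log2 scale. None was called, where 1.13% of all tested contigs were. In 3 of them all *hmcn-1(RNAi)* libraries were below all control libraries, as in 7.78% of all tested contigs. The best match of dd_1363 is CTSL, a cathepsin L cysteine protease of lysosomes that can also be secreted. It was at 75.9, 71.1 and 75.5 CPM in *hmcn-1(RNAi)* libraries, against 80.4, 85.3 and 83.1 CPM in control libraries. Every *hmcn-1(RNAi)* library was below every control library, with a log2 fold change of −0.16 (SE 0.0566, adjusted p = 0.217).

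The contig with most reads of either list was dd_351 (PRSS12, neurotrypsin, a secreted serine protease). Its level was 1160, 1232 and 1144 CPM in *hmcn-1(RNAi)* libraries, against 1262, 1270 and 1281 CPM in control libraries. The control libraries were closer to each other than the *hmcn-1(RNAi)* libraries were, and the conditions did not overlap. The log2 fold change was −0.11 (SE 0.0371, adjusted p = 0.195), and the 95% interval of the fold, 0.880 to 0.977, lay within 1.2-fold of control.

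Of the membrane-anchored ADAM family, dd_8718 (ADAM23, whose metalloprotease domain is inactive in mammals and which binds integrins) was at 57.3, 56.9 and 54.7 CPM in *hmcn-1(RNAi)* libraries, against 58.6, 62.9 and 60.9 CPM in control libraries. These did not overlap, with a log2 fold change of −0.11 (SE 0.0613, adjusted p = 0.513). The contig of unclear transcript, dd_1268 (WFIKKN2, which carries several protease inhibitor domains), was at 3.98, 7.94 and 6.60 CPM in *hmcn-1(RNAi)* libraries, against 6.44, 9.25 and 5.34 CPM in control libraries. Its replicates differed from each other by more than the conditions did, and its log2 fold change of −0.19 (SE 0.252, adjusted p = 0.858) changed sign without control replicate 2 or without *hmcn-1(RNAi)* replicate 1.

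Thrombospondin type 1 repeats and thyroglobulin type 1 repeats are small disulfide-rich modules of many matrix proteins, and 4 epidermal contigs carry them, 3 with higher and 1 with lower fitted levels. *adamtsl1* belongs to the ADAMTS-like proteins, which have the repeats of the ADAMTS proteases without the protease domain. It was at 241, 237.8 and 222 CPM in *hmcn-1(RNAi)* libraries, against 210, 227 and 216 CPM in control libraries. This was the highest log2 fold change of the epidermal list, 0.10 (SE 0.0453, adjusted p = 0.405), and the conditions overlapped, since *hmcn-1(RNAi)* replicate 3 was below control replicate 2.

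A second ADAMTS-like contig, dd_6962 (ADAMTSL3), was at 48.5, 43.5 and 46.3 CPM in *hmcn-1(RNAi)* libraries, against 43.8, 49.4 and 43.9 CPM in control libraries. The difference was 0.0092 on the log2 scale (SE 0.0709, adjusted p = 0.979), with a 95% interval of the fold of 0.911 to 1.11, and its sign turned without control replicate 1 (−0.018), control replicate 3 or *hmcn-1(RNAi)* replicate 1. The single core glycoprotein among the epidermal contigs, dd_1024 (TG, thyroglobulin), was at 66.3, 71.1 and 68.1 CPM in *hmcn-1(RNAi)* libraries, against 71.7, 75.5 and 73.7 CPM in control libraries. The conditions did not overlap, although the highest *hmcn-1(RNAi)* library, 71.1, was close to the lowest control library, 71.7, and the log2 fold change was −0.11 (SE 0.0580, adjusted p = 0.527).

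SEA domains are extracellular modules of heavily glycosylated surface proteins such as membrane mucins. They were the best domain annotation of 4 epidermal contigs and of no protonephridial one. Of the 3 tested, 2 had lower and 1 had higher fitted levels, from −0.12 to 0.021 on the log2 scale. The epidermal contig with the second most reads, dd_357, has a SEA domain, no signal peptide in its predicted protein and no close human match. It was at 756, 706 and 757 CPM in *hmcn-1(RNAi)* libraries, against 769, 796 and 846 CPM in control libraries, without overlap. Its log2 fold change of −0.12 (SE 0.0409, adjusted p = 0.194) passed the test only without control replicate 1, at −0.15 (adjusted p = 0.0362), the only epidermal call under any alternative. A further SEA contig, dd_26949, was not tested: it had 2, 0 and 2 reads in *hmcn-1(RNAi)* libraries, against 1, 4 and 2 reads in control libraries.

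Of the remaining epidermal contigs, the lowest fold change was that of dd_11447 (CUBN, cubilin, an endocytic receptor), which has a CUB domain and a transmembrane segment. It was at 18.01, 20.98 and 23.94 CPM in *hmcn-1(RNAi)* libraries, against 25.13, 24.2 and 24.98 CPM in control libraries. The 3 control libraries were alike and the *hmcn-1(RNAi)* libraries spread below them, with a log2 fold change of −0.23 (SE 0.09998, adjusted p = 0.381). It was −0.13 when replicate 1 of *hmcn-1(RNAi)* was left out and −0.34 when its replicate 3 was. The match to KAL1 (also named ANOS1, anosmin-1, a secreted matrix protein that acts in cell adhesion and migration), dd_10075, was at 26.6, 23.3 and 28.5 CPM in *hmcn-1(RNAi)* libraries, against 28.7, 30.0 and 28.9 CPM in control libraries. These did not overlap, but the margin was small, and the log2 fold change of −0.15 (SE 0.0890, adjusted p = 0.571) was −0.081 when replicate 2 of *hmcn-1(RNAi)* was left out and −0.23 when its replicate 3 was.

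The secreted factor of the list, dd_6028, has no close human match and varied widely among replicates, at 11.8, 16.0 and 13.1 CPM in *hmcn-1(RNAi)* libraries, against 13.2, 12.4 and 19.0 CPM in control libraries (log2 fold change −0.14, SE 0.154, adjusted p = 0.816). Its sign turned without control replicate 3 (0.089), and it was −0.27 without control replicate 2. The highest fold changes after *adamtsl1* were those of dd_13045 (NOTCH2, a receptor of the Notch pathway) at 0.087 (adjusted p = 0.836) and dd_10136 (LRRD1, a leucine-rich repeat protein) at 0.084 (adjusted p = 0.881). For dd_13045 the levels were 23.4, 17.8 and 20.8 CPM in *hmcn-1(RNAi)* libraries, against 17.4, 20.4 and 20.3 CPM in control libraries. For dd_10136 they were 11.9, 13.9 and 11.3 CPM in *hmcn-1(RNAi)* libraries, against 9.99, 11.4 and 13.1 CPM in control libraries. Both overlapped. Without control replicate 1 the log2 fold changes were 0.025 for dd_13045 and 0.0059 for dd_10136, and the signs turned when replicate 1 (dd_13045) or replicate 2 (dd_10136) of *hmcn-1(RNAi)* was left out. The other 10 tested epidermal contigs, among them matches to SLIT1, PLXNA1 and SNED1, had log2 fold changes of −0.14 to 0.071 with overlap in each, 7 lower and 3 higher, and the lowest adjusted p among them was 0.678.

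**Figure D3:**
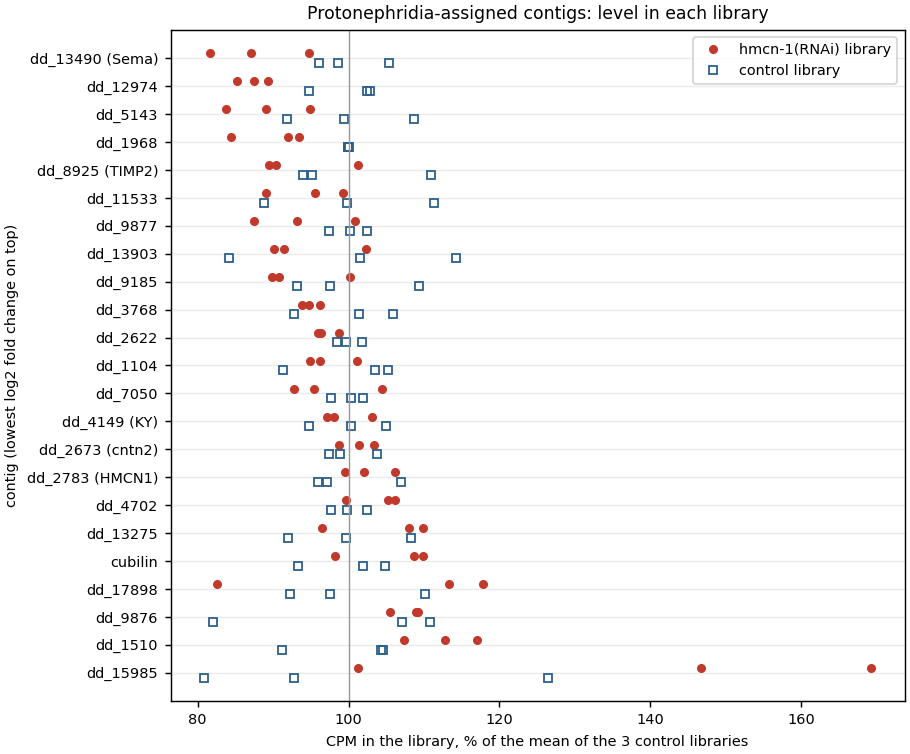
Level of the 23 tested protonephridial contigs in each library, as a percent of the mean of the 3 control libraries. Filled circles are *hmcn-1(RNAi)* libraries, open squares control libraries, and contigs run from the lowest log2 fold change (−0.19, dd_13490) at the top to the highest (0.43, dd_15985). All circles lie left of all squares for dd_13490, dd_12974 and dd_1968, and right of them for dd_1510.

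Among protonephridial contigs, endocytic receptors are of interest because they take up filtered proteins in excretory tubules. In the vertebrate kidney cubilin does so in the proximal tubule. Both protonephridial contigs of this kind had higher fitted levels, unlike the epidermal dd_11447. None of the 3 was called, where 1.13% of all tested contigs were. *cubilin* was at 177, 175 and 158 CPM in *hmcn-1(RNAi)* libraries, against 150, 164 and 169 CPM in control libraries. The conditions overlapped, with a log2 fold change of 0.075 (SE 0.0517, adjusted p = 0.647) and a 95% interval of the fold of 0.979 to 1.13. The log2 fold change was 0.029 without control replicate 1, and 0.13 when replicate 3 of *hmcn-1(RNAi)* was left out.

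The contig dd_1510 (VLDLR, a lipoprotein receptor that also binds reelin) was the only one of either list with all *hmcn-1(RNAi)* libraries above all control libraries. It was at 218, 210 and 200 CPM in *hmcn-1(RNAi)* libraries, against 170, 194 and 195 CPM in control libraries. The lowest control value was that of control replicate 1. The log2 fold change was 0.17 (SE 0.0506, adjusted p = 0.130), and over the alternatives the adjusted p ran from 0.0338 to 0.999. It passed the test under 1 of them, without a filter on low counts, and without control replicate 1 the log2 fold change was 0.10 (adjusted p = 0.376).

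Adhesion proteins and related surface proteins were the largest protonephridial group, with 5 contigs, 4 lower and 1 higher. The contig with the smallest p value of either list was dd_1968 (CDON, a surface receptor that acts with Hedgehog receptors in vertebrates). It was at 179, 196 and 199 CPM in *hmcn-1(RNAi)* libraries, against 213, 212 and 212 CPM in control libraries. The control libraries were within 1 CPM of each other and above every *hmcn-1(RNAi)* library, and the log2 fold change was −0.15 (SE 0.0459, adjusted p = 0.115). No alternative brought the adjusted p under 0.05, and they ranged from 0.0847 to 0.966.

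The protonephridial contig with most reads, dd_2673 (*cntn2*, contactin-2, a membrane-linked adhesion protein of neurons in vertebrates), was at 281, 288 and 294 CPM in *hmcn-1(RNAi)* libraries, against 277, 281 and 295 CPM in control libraries. The conditions overlapped, and the log2 fold change of 0.016 (SE 0.0420, adjusted p = 0.932) gave a 95% interval of the fold of 0.953 to 1.07, within 1.2-fold of control. Without control replicate 1 it was −0.0018. The match to MXRA5 with fewer reads, dd_12974, was at 9.94, 9.48 and 9.73 CPM in *hmcn-1(RNAi)* libraries, against 11.4, 10.5 and 11.4 CPM in control libraries. These did not overlap, but its counts of 71 to 115 reads per library gave a wide error, with a log2 fold change of −0.19 (SE 0.130, adjusted p = 0.645). A further MXRA5 match, dd_13903, had 1420 reads in all and overlapped between the conditions. Its log2 fold change was −0.095 (SE 0.0962, adjusted p = 0.786).

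Contigs whose best human match is a hemicentin were looked at apart, since hemicentin-1 was the target, and the 3 such members were all protonephridial. Hemicentins are long ECM glycoproteins built from many immunoglobulin repeats. The core glycoprotein dd_2783 (HMCN1) was at 28.5, 30.5 and 29.3 CPM in *hmcn-1(RNAi)* libraries, against 27.9, 27.5 and 30.7 CPM in control libraries (log2 fold change 0.034, SE 0.0844, adjusted p = 0.930). The transmembrane dd_3768 (HMCN1) was at 52.2, 52.6 and 53.5 CPM in *hmcn-1(RNAi)* libraries, against 51.5, 56.3 and 58.8 CPM in control libraries (−0.079, SE 0.0647, adjusted p = 0.724). The transmembrane dd_13275 (HMCN2) was at 15.8, 15.5 and 13.9 CPM in *hmcn-1(RNAi)* libraries, against 14.3, 15.6 and 13.2 CPM in control libraries (0.058, SE 0.116, adjusted p = 0.910). All 3 overlapped between the conditions, and the intervals of the fold, 0.909 to 1.15, 0.864 to 1.04 and 0.884 to 1.23, lay far from the difference in *hmcn-1* itself, whose mean in *hmcn-1(RNAi)* libraries was 8.71% of the control mean. With each library left out, the log2 fold change ran from 0.0014 to 0.086 for dd_2783, from −0.13 (without control replicate 1) to −0.037 for dd_3768 and from −0.0047 to 0.13 for dd_13275.

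Semaphorins are secreted or membrane guidance cues that plexins receive, and Slits are secreted cues of a second guidance pathway. The SLIT matches grouped here, dd_11341, dd_11533 and dd_7050, were excluded from the matrisome for a transmembrane segment, so they need not be secreted cues. The matrisome member of the guidance group in the protonephridial list was dd_13490. It was grouped by its Sema domain, since its best human match was GTF2IRD2B. It was at 31.7, 29.2 and 27.3 CPM in *hmcn-1(RNAi)* libraries, against 33.02, 35.3 and 32.1 CPM in control libraries. The conditions did not overlap, by a margin of less than 1 CPM, and the log2 fold change was −0.19 (SE 0.0837, adjusted p = 0.363). Over both lists 5 of 6 guidance contigs had lower fitted levels, where 50.0% of all tested contigs did. The 6 log2 fold changes ran from −0.19 to 0.054. None was called, and dd_13490 was the only one of the 6 without overlap. Of all tested contigs 1.13% were called and 15.6% did not overlap, in either direction.

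Delta proteins are the membrane ligands of Notch receptors. The match to DLL1, dd_15985, had the largest fold change of either list in size, on few reads. It was at 7.60, 8.77 and 5.24 CPM in *hmcn-1(RNAi)* libraries, against 4.19, 4.80 and 6.55 CPM in control libraries. *hmcn-1(RNAi)* replicate 3 was below control replicate 3, so the conditions overlapped. The log2 fold change was 0.43 (SE 0.201, adjusted p = 0.436) and the 95% interval of the fold was 1.01 to 1.79. These rest on 26 to 74 reads per library, and the log2 fold change was 0.26 when replicate 2 of *hmcn-1(RNAi)* was left out and 0.64 when its replicate 3 was.

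Proteases and inhibitors were few among protonephridial contigs. The membrane metalloprotease match dd_5143 (ADAM9) was at 106, 113 and 120 CPM in *hmcn-1(RNAi)* libraries, against 138, 116 and 126 CPM in control libraries. The conditions overlapped, the highest value was that of control replicate 1, and the log2 fold change was −0.16 (SE 0.0586, adjusted p = 0.262). It was −0.097 without control replicate 1 (adjusted p = 0.568). The match to TIMP2, a secreted inhibitor of matrix metalloproteases, dd_8925, was at 28.1, 31.8 and 28.3 CPM in *hmcn-1(RNAi)* libraries, against 29.5, 34.8 and 29.8 CPM in control libraries (−0.10, SE 0.0872, adjusted p = 0.736). The log2 fold change was −0.016 without control replicate 2, and −0.16 when replicate 2 of *hmcn-1(RNAi)* was left out. The inhibitor-domain contig dd_12691 (WFIKKN2) was not tested, with 3, 0 and 1 reads in *hmcn-1(RNAi)* libraries, against 0, 1 and 1 reads in control libraries.

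The transmembrane contig dd_9876, which has no close human match, was at 22.5, 22.5 and 21.7 CPM in *hmcn-1(RNAi)* libraries, against 16.9, 22.8 and 22.1 CPM in control libraries. Its log2 fold change of 0.092 (SE 0.103, adjusted p = 0.814) rested on control replicate 1, and was −0.016 without it. The other 10 tested protonephridial contigs, dd_13903 among them, had log2 fold changes of −0.097 to 0.079, 8 lower and 2 higher. The conditions overlapped in each, and the lowest adjusted p among them was 0.678.

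**Figure D4:**
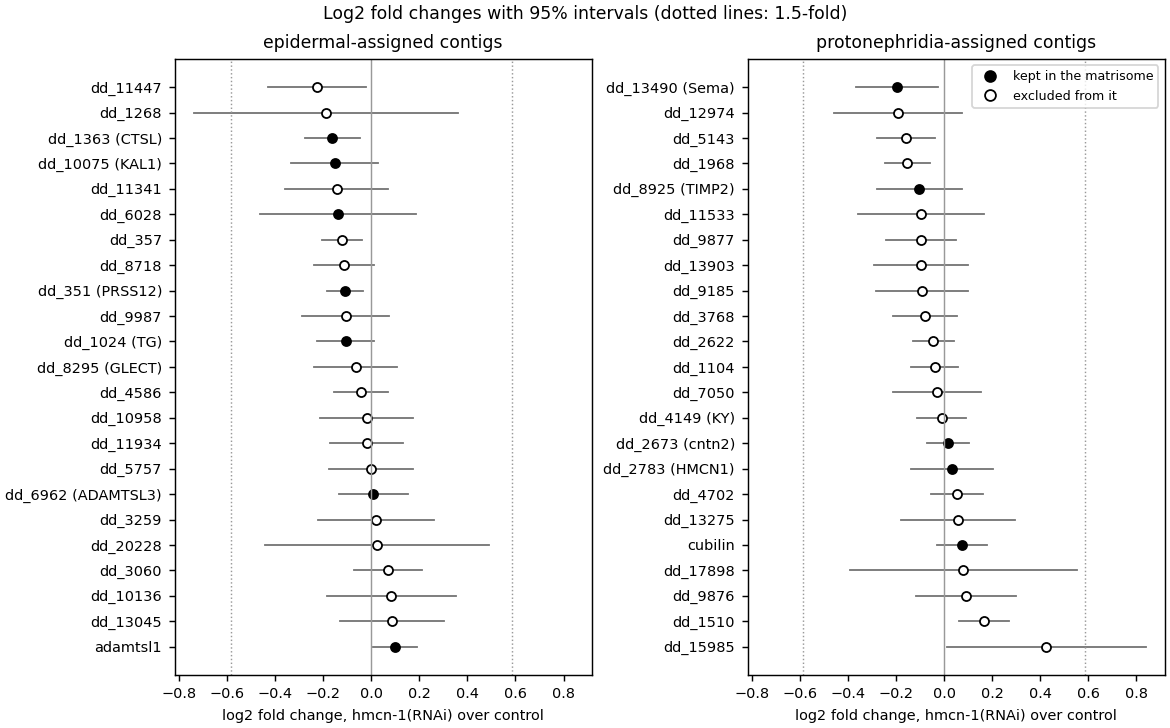
Log2 fold change of *hmcn-1(RNAi)* over control with its 95% interval for each tested contig, epidermal on the left and protonephridial on the right. Filled points are contigs kept in the matrisome, open points those excluded from it, and dotted lines mark 1.5-fold. Only the intervals of dd_1268 and dd_15985 cross a dotted line.

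The 7 epidermal contigs kept in the matrisome, dd_1363 and dd_6028 at low confidence, had a median log2 fold change of −0.11. Of these, 5 were lower, 2 higher and 4 had all *hmcn-1(RNAi)* libraries below all control libraries. The 16 tested contigs excluded from the matrisome had a median of −0.031, with 11 lower, 5 higher and 3 below in this way, as were 7.78% of all tested contigs. Within the excluded epidermal contigs the median was −0.031 over the 10 with a transmembrane segment and 0.024 over the 5 tested without a signal peptide. For protonephridia the median was 0.016 over the 5 tested contigs kept and −0.041 over the 18 excluded, −0.061 over the 14 with a transmembrane segment and −0.025 over the 4 without a signal peptide. The differences between these groups were not tested.

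Lists of other cell types were drawn by the same rule, with *hmcn-1* itself also left out. They give the size of these shifts some context, with no test between lists. The 34 tested muscle contigs, collagens and *hmcn-1* left out, had a median log2 fold change of −0.12. There were 23 lower and 11 higher, 1 called lower and 12 at an unadjusted p under 0.05. All *hmcn-1(RNAi)* libraries were below all control libraries for 26.5% of them and above for 0. The 75 tested neural contigs had a median of −0.072, with 54 lower and 21 higher, 1 called higher and 13 at an unadjusted p under 0.05, and 16.0% lay below without overlap and 1.33% above. The 65 tested cathepsin+ contigs had a median of 0.074, with 18 lower and 47 higher, 0 called by edgeR and 11 at an unadjusted p under 0.05, and 6.15% lay below without overlap and 12.3% above. Over all tested contigs 1.13% were called and 11.0% had an unadjusted p under 0.05, and 7.78% lay below without overlap and 7.81% above. A larger share of lower than of higher contigs was thus seen in the muscle and neural lists as well as in the epidermal and protonephridial lists. These values of the other lists were not recomputed with libraries left out.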

How the data were processed

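Whole-number read counts per contig were deposited by the authors, who mapped reads to the dd_Smed_v6 transcriptome and added up the isotigs of a contig. The submitters' processing notes name CASAVA 1.9, cutadapt 1.8, Bowtie 1.2.2, SAMtools 1.9 and R 3.4.4. Mapping used the best-alignment option of Bowtie, and the placing of reads that match several contigs equally well was not stated. A deposited table of the authors' own DESeq2 results (means, fold changes, p values) was not used.

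Counts were analysed in edgeR 4.0.16 (R 4.3.3). Low-count contigs were removed by filterByExpr (minimum count 10), libraries were scaled by TMM, and a robust quasi-likelihood model had only condition as a term. P values were Benjamini-Hochberg adjusted over 15333 contigs, and those under 0.05 were called. The common biological coefficient of variation was 6.28%. The SE is the size of the log2 fold change over the square root of F. For list medians by library, 1 was added to the counts as a prior before taking log2 CPM. CPM is not per length, so levels of different contigs are not compared. Alternatives used DESeq2 1.42.0, limma 3.58.1, other filters and scaling, a replicate block and each library left out. Plots were made with matplotlib 3.10.9.

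Named are *hmcn-1*, the markers, all matrisome members, hemicentin matches, and other members that were called, did not overlap, or had one of the 3 highest or 3 lowest log2 fold changes of their list. Values of dd_13903 are given besides, with all libraries only. Members, lists and role groups were chosen with earlier results of these data known. Human matches were kept at an E-value under 0.01. No label says that the libraries come from separate cultures, so p values measure the spread between these pools of tails.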

Additional observations from a re-analysis of the deposited data

How the results depend on the processing

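The count of called contigs over all contigs, 173, was 339 without a filter on low counts, 66 with DESeq2 without independent filtering, 73 with limma-voom and 75 to 255 with each library left out, lowest without control replicate 3 (75), *hmcn-1(RNAi)* replicate 1 (88) and *hmcn-1(RNAi)* replicate 3 (91), and the cause was not tested. RLE scaling gave 168, a minimum of 100 counts in 3 libraries 166, and DESeq2 with independent filtering 126. Epidermal calls stayed at 0 except for 1 without control replicate 1 (dd_357), a range of 0 to 1 with each library left out, and protonephridial calls at 0 except for 1 without a filter on low counts (dd_1510). With each library left out, the median log2 fold change ran from −0.11 (without control replicate 1) to −0.040 for the epidermal list and from −0.046 to −0.0093 (without control replicate 2) for the protonephridial list.

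Same-numbered libraries deviated together only weakly (correlations 0.0191, 0.0964 and 0.0067), and the labels name no shared batch, so the numbers were not taken as pairs. The replicate block gave 292 called contigs and 0 of either list. Chosen after seeing the data, the non-overlap counts with each library left out were 7 to 10 below and 0 to 1 above for the epidermal list, and 3 to 7 (without *hmcn-1(RNAi)* replicate 2) below and 1 to 3 above for the protonephridial list. The same counts rose over all tested contigs, where 7.78% lay below with all libraries and 12.1% to 13.7% with one left out, and 7.81% lay above with all libraries and 12.5% to 14.1% with one left out. For both lists RLE scaling gave the same non-overlap counts as TMM. Over all tested contigs RLE scaling gave 7.87% below and 7.74% above.

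Of 399 values of single contigs under an alternative, 373 kept their direction and side of the threshold, 9 lost a call (all of them *prog-2*), 2 gained one and 15 changed sign. The sign changes all came from leaving out a library and concerned values not called either way. Their ranges were −0.0037 to 0.19 for dd_10136, −0.38 to 0.088 for dd_1268, −0.0020 to 0.17 for dd_13045, −0.0047 to 0.13 for dd_13275, −0.0018 to 0.043 for dd_2673, −0.27 to 0.089 for dd_6028, −0.026 to 0.073 for dd_6962, −0.016 to 0.17 for dd_9876 and −0.34 to 0.10 for *zfp1*. Depth limits the contigs of fewest reads, since the tested members had 177 to 63073 reads in all.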
